A study of Mus musculus with 6 samples.

Results

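Ribosome biogenesis genes encode the factors that make and assemble ribosomes in the nucleolus. The set described here holds 31 genes chosen by name, namely nucleolar processing factors, RNA polymerase I subunits and growth genes known as targets of the transcription factor MYC. All 31 were among the 24015 genes listed in the count files, and all 31 passed the filter on low counts that 12729 genes passed. RNA was sequenced from leukaemia stem and progenitor cells, which were sort-purified once MLL-AF9 acute myeloid leukaemia had fully developed in the mice. Both groups derive from lin-, cKit+ progenitors of the bone marrow of NIKERT2 mice, which carry a Rosa-loxp-STOP-loxp-NIK allele and a Rosa-CreERT2 allele. NIK is the kinase encoded by Map3k14. The Rosa copy of NIK, but not the endogenous gene, is held silent by the stop cassette until tamoxifen lets Cre remove it, and the counts per gene do not separate the copies. The 3 LSPC libraries came from untreated mice and the 3 LSPCT libraries from tamoxifen-treated mice. Tamoxifen was given to the LSPCT mice only, so the drug, Cre and NIK cannot be told apart. CreERT2 is expressed from the Rosa locus, which is known to be active in most cell types, and the sort gates and the ages of the mice are not given. The labels do not say whether each library is a mouse of its own, so the p-values rest on a spread between samples that could be technical.

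A ribosome begins as a long precursor RNA that RNA polymerase I transcribes from the ribosomal DNA. Small nucleolar ribonucleoproteins (snoRNPs) guide its methylation and pseudouridylation, and a large processome on the nascent transcript separates the small subunit from the large one, each of which then matures with its own factors. MYC is known to drive many of these genes together with genes for polyamines, nucleotides and translation initiation, and dividing leukaemia cells depend on a steady supply of ribosomes.

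Total counts were 20410001 to 26773176 in the untreated libraries and 19999071 to 22454753 in the tamoxifen libraries, and 3 counts corresponded to 0.112 to 0.150 CPM, the unit used here for counts scaled by library size. The lowest value of any member in any library was 34.3 CPM, for Tfb2m. Map3k14 was higher in all tamoxifen libraries (130 to 191 CPM) than in the untreated ones (24.2 to 28.8 CPM). Of the 9 progenitor markers, Kit (117 to 194 CPM), Cd34 (149.6 to 264 CPM) and Ptprc (261 to 403 CPM) were present in all 6 libraries. So were Meis1 (88.4 to 112 CPM) and Itgam (111.6 to 327 CPM). Hoxa9 was at 215 to 269 CPM untreated and at 430, 159 and 154 CPM in tamoxifen replicates 1 to 3. Fcgr3 fell, from 212 to 226.5 CPM untreated to 148 to 164.5 CPM with tamoxifen (log2 -0.49, edgeR adjusted p = 0.00518). Mpo and Elane, granule genes of granulocyte-monocyte progenitors, were at 2940 to 4080 and 2515 to 3037 CPM untreated and at 75.7 to 372 and 662 to 1113 CPM with tamoxifen. Tamoxifen replicate 1 stood apart on the second principal component (48.2, against -25.8 and -18.6 for replicates 2 and 3). The summed level of 9 macrophage markers (C1qa, C1qb, C1qc, Mrc1, Fcgr1, Emr1, Marco, Vsig4 and Cd163) was highest there, as was each marker but Marco and Vsig4. The sum was 529 CPM, against 179 and 219 CPM in replicates 2 and 3 and 77.8 to 108 CPM untreated, and 6 of the 8 tested markers rose with tamoxifen. The 9 progenitor markers summed to 3147 CPM in tamoxifen replicate 1, against 2494 and 2220 CPM in replicates 2 and 3. Untreated libraries held 7011 to 8454 CPM. Of the tamoxifen libraries, replicate 1 was the highest in Kit, Fcgr3, Mpo, Elane and Hoxa9. It was the lowest in Cd34, Ptprc and Itgam, with Meis1 in between. The summed level of 7 mature neutrophil markers was 261, 10.7 and 2028 CPM in untreated replicates 1 to 3 and 171 to 499 CPM with tamoxifen, and none of the 7 passed. Haemoglobin genes Hba-a1, Hba-a2, Hbb-b1 and Hbb-b2, the B cell gene Pax5 and the natural killer cell gene Ncr1 were at 0 in all 6 libraries. The 5 B cell markers summed to 40.7 to 45.5 CPM untreated and 26.97 to 48.7 CPM with tamoxifen, nearly all of it Cd79b (26.2 to 47.9 CPM over the 6 libraries). The 6 T and natural killer cell markers summed to 4.92 to 7.67 CPM untreated and 8.22 to 19.9 CPM with tamoxifen.

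None of the 31 members rose with tamoxifen and 4 fell, namely Cad, Srm, Polr1a and Nop2 (edgeR quasi-likelihood test, two-sided, Benjamini-Hochberg adjusted over all genes tested, threshold 0.05). Over all genes tested 17.2% passed, 8.24% as lower and 8.96% as higher, so 4 of 31 members (12.9%) is near the background. The members' median log2 fold change was -0.09, against -0.003 over all genes tested, and 24 of 31 had a fitted change below 0, against 50.4% of all genes. For the 5477 genes tested in the members' range of mean level, the median was -0.04 and 56.7% were below 0. The members' fold changes ran from -0.61 to 0.38 on the log2 scale, with 25 of 31 inside a 1.25-fold change (80.6%). That share is near the 78.4% of genes in the same range of level, and above the 60.8% of all genes tested. None of the members reached a 2-fold change, as did 3.21% of the genes in their range. For 25 of the 27 members that did not pass (92.6%), the 95% interval of the log2 difference lay inside a 1.5-fold change in either direction, which is near the 89.1% of genes in that range that did not pass; the exceptions were Ppan and Dkc1. The summed level of the 31 genes was 8564, 8833 and 7871 CPM in untreated replicates 1 to 3 and 8282, 7792 and 8269 CPM in tamoxifen replicates 1 to 3, with overlapping groups.

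**Figure D1:**
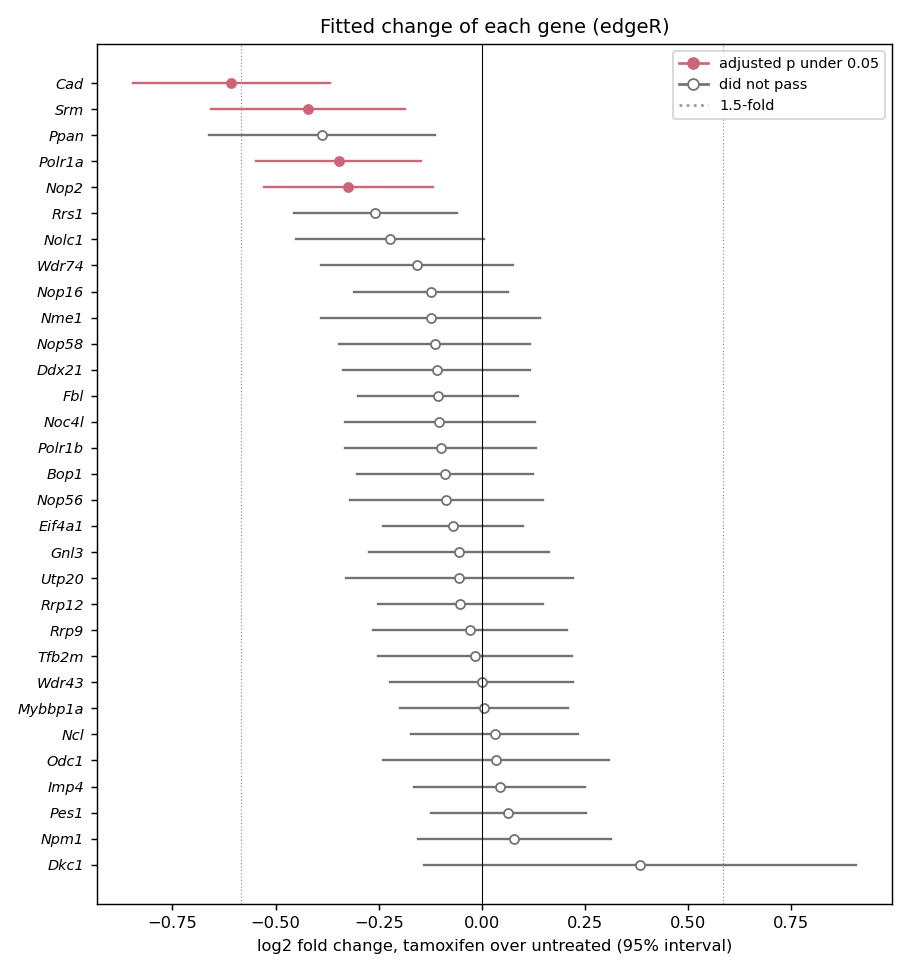
Fitted log2 fold change of each of the 31 genes, tamoxifen over untreated, with its 95% interval (horizontal axis), ordered by size. Filled red points passed an adjusted p of 0.05, open points did not, and dotted lines mark a 1.5-fold change. Cad lies furthest to the left at -0.61 and Dkc1, with the widest interval, furthest to the right at 0.38.

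The members that fell came from 3 roles: pyrimidine and polyamine synthesis, RNA polymerase I and large subunit maturation. Cad encodes the enzyme that carries out the opening steps of pyrimidine synthesis. Its level was 311, 295 and 261 CPM in untreated replicates 1 to 3 and 176, 210.3 and 184 CPM in tamoxifen replicates 1 to 3. Every tamoxifen library lay below every untreated library, and the mean went from 289 ± 25.5 to 189.9 ± 18.1 CPM (SD, n = 3), a log2 fold change of -0.61 (SE 0.10, edgeR adjusted p = 0.00631). Cad passed under each of the 14 alternative settings tried, with log2 fold changes of -0.69 to -0.55.

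Srm encodes spermidine synthase, which makes spermidine from putrescine. It stood at 192.5, 179 and 163 CPM untreated and at 144, 134 and 121 CPM with tamoxifen. The groups did not overlap (log2 -0.42, SE 0.10, edgeR adjusted p = 0.0257). Without untreated replicate 1 or 2, or tamoxifen replicate 2 or 3, Srm missed the threshold (adjusted p 0.0677 to 0.130), with log2 fold changes of -0.43 to -0.35.

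Polr1a, the gene of the largest subunit of RNA polymerase I, had 126, 133 and 115 CPM untreated. With tamoxifen it had 96.2, 96.2 and 101 CPM, below all untreated libraries (log2 -0.35, SE 0.09, edgeR adjusted p = 0.0297). Its adjusted p was 0.0607 to 0.127 in the fits without untreated replicate 1 or 2 or without tamoxifen replicate 2 or 3. The gene of the other large subunit, Polr1b, lay at 69.2 to 79.5 CPM untreated and 64.3 to 76.6 CPM with tamoxifen, so its groups overlapped and it did not pass (log2 -0.10, edgeR adjusted p = 0.547).

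Nop2 encodes a methyltransferase of the large subunit ribosomal RNA. Levels were 148, 152 and 133 CPM untreated and 119, 118 and 109 CPM with tamoxifen, without overlap (log2 -0.32, SE 0.09, edgeR adjusted p = 0.0420). Its call was the least stable of the 4. Only without tamoxifen replicate 1 did it hold among the fits that leave out a library (adjusted p of the others 0.0585 to 0.168), and it was lost with upper quartile scaling (adjusted p = 0.0643). When samples were left out, Cad was thus the only member of the 4 called in every fit. All 4 passed without tamoxifen replicate 1. That library had the highest macrophage marker sum and, within the tamoxifen group, the highest progenitor marker sum, although Cd34, Ptprc and Itgam were lowest there within that group.

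**Figure D2:**
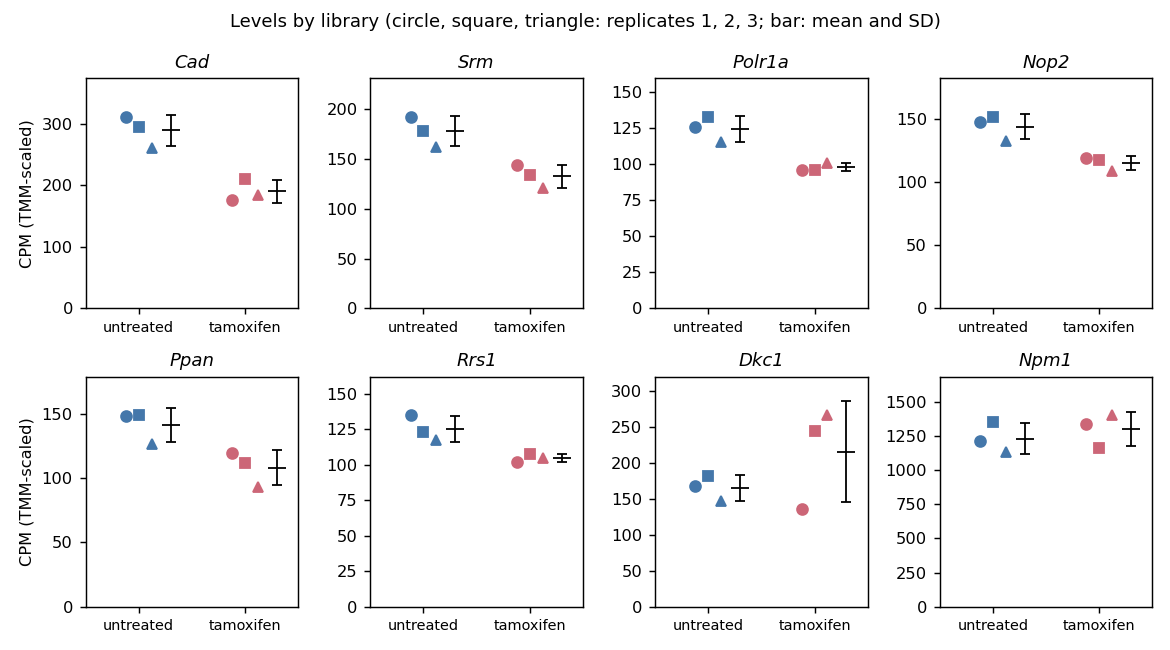
TMM-scaled CPM (vertical axes, each from 0) of 8 ribosome biogenesis genes in untreated (blue) and tamoxifen (red) libraries, with the mean and SD of 3 libraries beside the points. In Cad, Srm, Polr1a, Nop2, Ppan and Rrs1 all red points lie below all blue points, in Dkc1 the circle of tamoxifen replicate 1 lies apart from the other red points, and in Npm1 the groups overlap.

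The stretches upstream of Nop2, Polr1a and Cad are shown because these genes fell, and that of Eif4a1 because it holds the same letters as Nop2 while its level did not pass the test. They run 5′ to 3′ up to the base before the RefSeq gene start (GRCm38.p6), leaving out bases in annotated exons, and capitals mark CACGTG, the E-box that MYC and MAX are known to bind. Nop2 lies at chr6:125131633-125131882 (+), Polr1a at chr6:71908803-71909052 (+), Cad at chr5:31054624-31054779 (+) and Eif4a1 at chr11:69672424-69672673 (-).
Nop2: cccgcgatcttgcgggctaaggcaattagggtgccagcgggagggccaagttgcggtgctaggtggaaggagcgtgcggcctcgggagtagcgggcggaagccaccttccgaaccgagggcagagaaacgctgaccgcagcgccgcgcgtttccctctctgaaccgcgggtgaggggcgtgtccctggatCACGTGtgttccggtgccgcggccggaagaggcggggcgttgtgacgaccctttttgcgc
Polr1a: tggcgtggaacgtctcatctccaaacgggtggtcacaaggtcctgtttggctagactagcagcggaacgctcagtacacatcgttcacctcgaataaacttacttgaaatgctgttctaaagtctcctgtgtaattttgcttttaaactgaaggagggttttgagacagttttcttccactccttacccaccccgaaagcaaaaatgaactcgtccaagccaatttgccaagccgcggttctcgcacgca
Cad: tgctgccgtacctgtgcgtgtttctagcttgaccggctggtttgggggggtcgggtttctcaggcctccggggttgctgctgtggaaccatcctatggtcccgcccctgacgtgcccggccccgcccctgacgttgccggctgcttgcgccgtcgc
Eif4a1: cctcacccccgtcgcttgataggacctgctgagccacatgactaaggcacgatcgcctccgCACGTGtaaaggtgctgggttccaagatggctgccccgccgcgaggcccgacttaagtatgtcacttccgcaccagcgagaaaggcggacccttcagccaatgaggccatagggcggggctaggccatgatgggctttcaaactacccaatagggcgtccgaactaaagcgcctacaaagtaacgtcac

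CACGTG reads the same on both strands. The promoters in the RefSeq table reach from 250 bases before to 50 after each gene's start, and no sequence outside this window was searched. CACGTG stood in 8 of the 25 members that matched (32.0%) and in 17 of 95 further ribosome biogenesis genes tested (17.9%). It stood in 1125 of 9631 genes tested (11.7%) and in 2187 of all 27025 genes (8.09%). The 8 were Nop2, Imp4, Utp20, Pes1, Eif4a1, Mybbp1a, Nme1 and Wdr43. In Nop2 it began at position -60 from the gene start, in Eif4a1 at -189, in Imp4 at -121 and in Nme1 at -18 or -29, depending on the start. In Utp20, Pes1, Mybbp1a and Wdr43 it lay only after the gene start, beginning at positions 37, 2, 40 and 17. Members with these letters had a median log2 fold change of -0.03 and those without of -0.10, and of the genes that fell only Nop2 held them in this window, Srm not being matched. Bop1, Fbl, Npm1, Rrp12 and Rrs1 were not matched either.

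Among the large subunit factors, the changes below 0 extended past Nop2 without passing. Ppan, needed for large subunit maturation, was at 148, 149 and 126 CPM untreated and 119, 112 and 92.9 CPM with tamoxifen. Its groups did not overlap, but it missed the threshold (log2 -0.39, SE 0.12, edgeR adjusted p = 0.0605). Without tamoxifen replicate 1 it passed (log2 -0.46, edgeR adjusted p = 0.0220), and it passed with DESeq2 (adjusted p = 0.0189), which called 6 members, all lower, and 10.3% of all genes as lower. Rrs1, which helps to bring the 5S RNA into the large subunit, had 135, 123 and 117.5 CPM untreated and 102, 107 and 105 CPM with tamoxifen, again without overlap (log2 -0.26, SE 0.09, edgeR adjusted p = 0.0773). DESeq2 put it just past the threshold (adjusted p = 0.0459).

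Nop16 also separated the groups, by a small margin. Its untreated libraries were at 80.9, 76.5 and 79.9 CPM and its tamoxifen libraries at 76.3, 70.4 and 71.1 CPM (log2 -0.12, edgeR adjusted p = 0.339). Wdr74 differed by -0.16 (edgeR adjusted p = 0.330) with overlapping groups. Bop1 and Pes1 encode partners in the PeBoW complex of large subunit processing. Bop1 had 129 to 152 CPM untreated and 126 to 138 CPM with tamoxifen (log2 -0.09), and Pes1, the member of this role with the highest mean count, had 223, 203 and 198 CPM against 222, 218 and 211 CPM (log2 0.06, edgeR adjusted p = 0.643). In all, 1 of 7 large subunit factors fell (14.3%), where 17.2% of all genes tested passed, 8.24% as lower. Fitted changes were below 0 in 6 of 7, against 56.7% of the genes in the members' range of mean level. Of 47 further large subunit factors 63.8% were below 0, with a median of -0.03. The summed level of the 7 was 837 to 941 CPM untreated and 760 to 834 CPM with tamoxifen. For all 31 members, the groups did not overlap in 7 (Cad, Srm, Polr1a, Nop2, Ppan, Rrs1 and Nop16), each with tamoxifen below, and in none with tamoxifen above. Over all genes tested 19.6% lay apart with tamoxifen below and 18.1% with tamoxifen above.

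None of 5 small subunit processing factors passed, with fitted changes of -0.10 to 0.04. As 17.2% of all genes tested passed, none of 5 does not set the role apart. Wdr43, a factor of the processome that acts while the precursor is being transcribed, had 132, 160.5 and 139 CPM untreated and 144, 139 and 148 CPM with tamoxifen. The groups overlapped and their difference was within 0.01 of 0 (log2 -0.001, 95% interval -0.22 to 0.22). Imp4, a protein of the U3 snoRNP, was at 72.1 to 78.5 CPM untreated and 70.9 to 81.8 CPM with tamoxifen (log2 0.04). Utp20 (log2 -0.06), Noc4l (-0.10) and Rrp12 (-0.05) did not pass either. Utp20 showed a wider spread with tamoxifen, at 88.6, 103 and 117 CPM, against 97.3 to 112 CPM untreated.

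None of the 5 snoRNP protein genes passed, too few genes to set against the 17.2% of all genes. Dyskerin stood apart from the others by its spread. Fbl, the methyltransferase of box C/D snoRNPs, stood at 309, 282 and 274 CPM untreated and 274, 278 and 252 CPM with tamoxifen. The groups overlapped (log2 -0.11, SE 0.08, edgeR adjusted p = 0.439). Its partners Nop56 (log2 -0.09) and Nop58 (-0.12) and the U3 protein gene Rrp9 (-0.03) did not pass either. Nop56 ranged from 249 to 274 CPM untreated and from 229.7 to 282 CPM with tamoxifen, where replicate 1 was the highest.

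Dkc1 encodes dyskerin, the pseudouridine synthase of box H/ACA snoRNPs, which is also part of telomerase. Its untreated libraries held 168, 182 and 146 CPM. Tamoxifen replicate 1 was the lowest of all 6 libraries at 136 CPM, and replicates 2 and 3 were the highest at 245 and 266 CPM. Over all libraries the difference was 0.38 with an SE of 0.23, past no threshold (edgeR adjusted p = 0.294). Without tamoxifen replicate 1 it was 0.63 and passed as higher (edgeR adjusted p = 0.00412); the members called in that fit were 5 lower and 1 higher, where 25.1% of all genes were called, 12.3% as lower and 12.8% as higher. With tamoxifen replicate 2 or 3 left out instead, Dkc1 differed by 0.28 or 0.21 (edgeR adjusted p = 0.542 and 0.610). The library in which Dkc1 was low had the highest macrophage marker sum and, within the tamoxifen group, the highest progenitor marker sum. The progenitor markers did not move together: within that group Kit, Fcgr3, Mpo, Elane and Hoxa9 were highest there, Cd34, Ptprc and Itgam lowest and Meis1 in between. Whether Dkc1 and these sums are related was not tested.

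**Figure D3:**
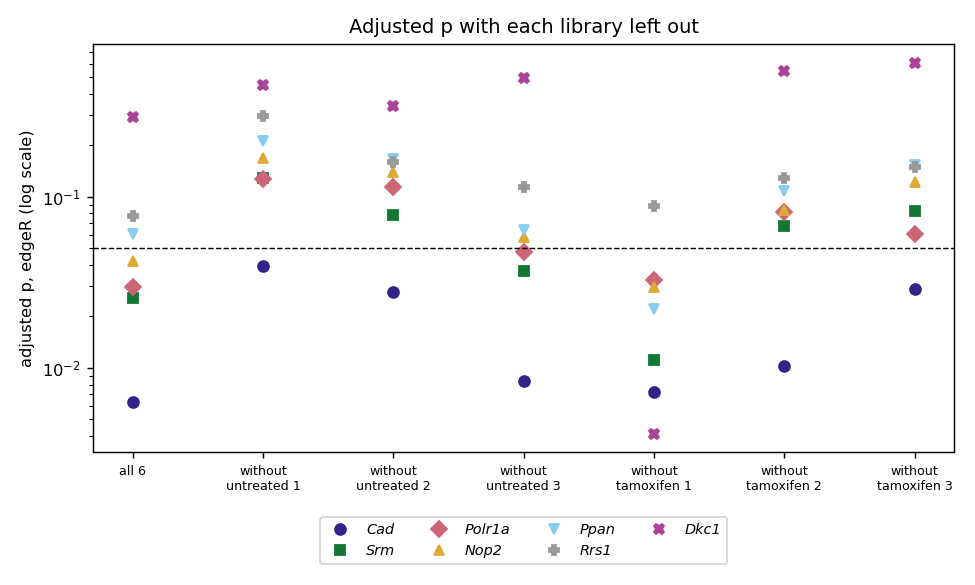
Adjusted p of the edgeR test (vertical axis, log scale) for 7 ribosome biogenesis genes with all 6 libraries and with each library left out in turn; the dashed line is 0.05. Cad stays below the line throughout, Srm, Polr1a and Nop2 cross it when single libraries are left out, and Dkc1 goes from 0.294 to 0.00412 when tamoxifen replicate 1 is left out.

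Nucleolar factors included the most abundant members. None of 6 passed, too few genes to set against the 17.2% of all genes. Ncl encodes nucleolin, an RNA-binding protein of the nucleolus, and had 1481, 1624 and 1381 CPM untreated and 1555, 1427 and 1601 CPM with tamoxifen (log2 0.03, 95% interval -0.17 to 0.23). Npm1, the nucleolar chaperone gene often mutated in human acute myeloid leukaemia, was at 1210, 1350 and 1131 CPM untreated and 1334, 1159 and 1402 CPM with tamoxifen. Both genes overlapped between groups (log2 0.08 for Npm1, edgeR adjusted p = 0.652). Npm1 is known to have many processed copies in the genome, and reads of such copies may be lost or misassigned.

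Gnl3, the nucleolar GTPase nucleostemin, was at 117 to 131 CPM untreated and 109.8 to 128 CPM with tamoxifen (log2 -0.06). The helicase gene Ddx21 (log2 -0.11) and Mybbp1a (0.01) did not pass either. Nolc1, a chaperone of snoRNPs, had the largest difference of the role. Its untreated libraries were at 252, 256 and 224 CPM and its tamoxifen libraries at 231, 206 and 192 CPM, overlapping only through tamoxifen replicate 1 and untreated replicate 3 (log2 -0.22, SE 0.10, edgeR adjusted p = 0.165).

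The MYC growth targets split into the fallen Cad and Srm and 4 genes that did not pass. Eif4a1, the helicase of cap-dependent translation initiation, had 1215, 1206 and 1180 CPM untreated and 1196, 1073 and 1161 CPM with tamoxifen. Tamoxifen replicate 1 lay inside the untreated range, and the difference did not pass (log2 -0.07, SE 0.07, edgeR adjusted p = 0.570). Odc1 encodes ornithine decarboxylase, which makes the putrescine that Srm uses. It was at 197, 206 and 181 CPM untreated and 234, 178 and 186 CPM with tamoxifen, highest in tamoxifen replicate 1 (log2 0.03, edgeR adjusted p = 0.876). Nme1, a nucleoside diphosphate kinase gene, was likewise highest in that library (140 CPM, against 112 and 106 CPM in tamoxifen replicates 2 and 3 and 129 to 133 CPM untreated; log2 -0.12, edgeR adjusted p = 0.511). In GENCODE M21, 12.5% of the exon bases of Nme1 are shared with the gene model Gm20390, and Nme2 is a close copy, so its counts are uncertain. Tfb2m, a transcription factor of mitochondrial DNA, stood at 38.6 to 40.2 CPM untreated and at 34.3, 38.95 and 43.1 CPM with tamoxifen (log2 -0.02).

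**Figure D4:**
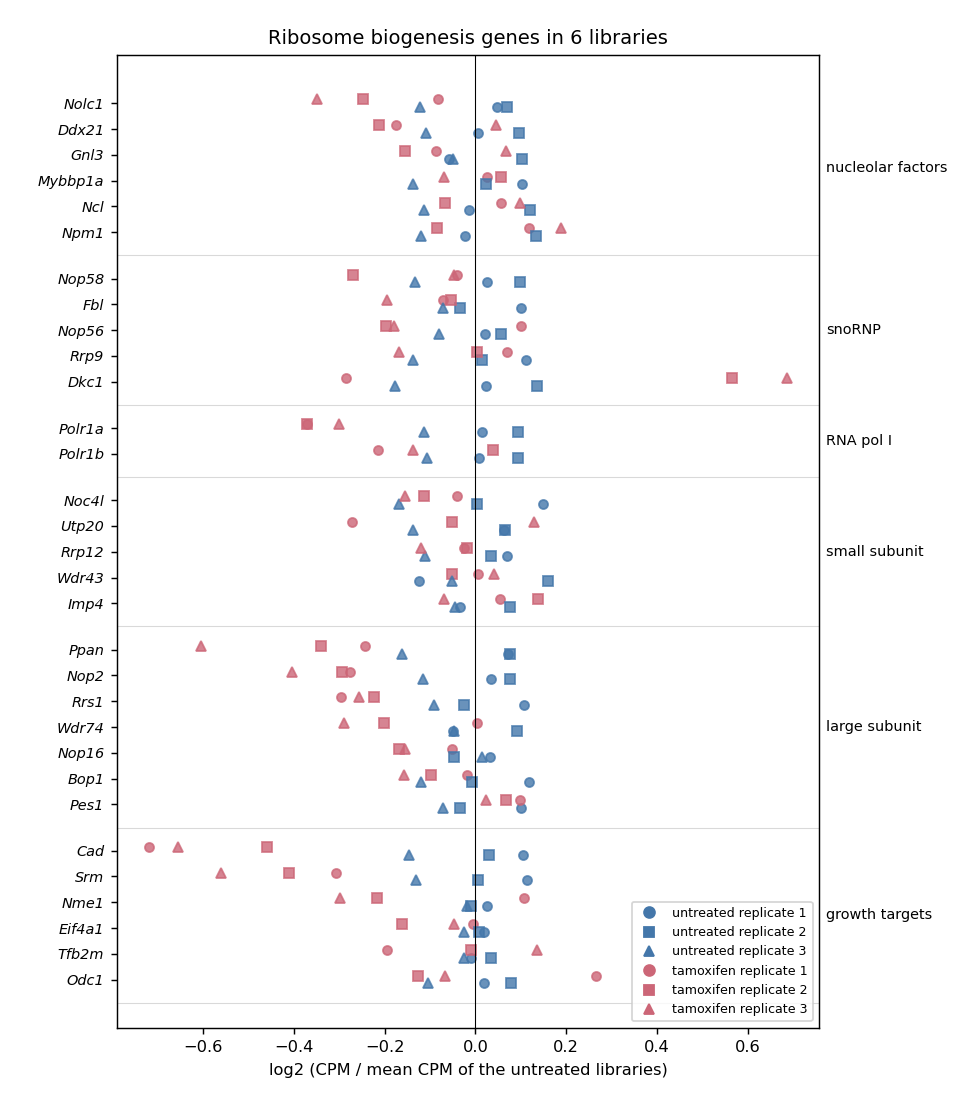
Level of each of the 31 genes in each library, as log2 of its CPM over the mean of the untreated libraries (horizontal axis), grouped by role; blue points are untreated and red points tamoxifen libraries, with 1 symbol per replicate number. Triangles of untreated replicate 3 lie leftmost among the blue points in 27 of 31 genes, and the red points of Cad, Srm, Polr1a, Nop2, Ppan, Rrs1 and Nop16 lie left of all blue points.

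The members shared library-to-library shifts within the untreated group. Untreated replicate 3 was the lowest of the 3 untreated libraries in 27 of 31 members (87.1%), against 41.8% of the 5477 genes tested in the members' range of mean level. The shift was not particular to the members, as the same library was lowest in 64 of 71 cytosolic ribosomal protein genes (90.1%). That library also held the highest neutrophil marker sum, 2028 CPM; its part in the result was not tested. Without untreated replicate 3 the members' median was -0.12 and 27 of 31 were below 0. Cad, Srm and Polr1a passed in that fit, each as lower, and 11.5% of all genes passed, 4.79% as lower and 6.72% as higher. In the tamoxifen group the lowest library was replicate 1 in 7 members (22.6%), replicate 2 in 10 (32.3%) and replicate 3 in 14 (45.2%), against 44.7%, 23.9% and 31.5% of the genes in the members' range. The members' median difference of a tamoxifen library from the untreated mean was -0.04 in replicate 1, -0.13 in replicate 2 and -0.14 in replicate 3 on the log2 scale, with 20, 25 and 22 of 31 members below. Over all genes tested the medians were -0.012, -0.001 and 0.008, with 51.4%, 50.2% and 49.3% below.

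Levels were compared between genes per kilobase of coding sequence of the principal GENCODE M21 transcript, an annotation other than the one counted. On that scale Npm1 was the highest member, at 1404 CPM per kilobase untreated and 1483 with tamoxifen. Eif4a1 (985 and 938) and Ncl (705 and 720.4) followed, then Fbl (294 and 273) and Nme1 (285.5 and 262). These 5, and Srm in sixth place, kept their places in both groups, although Srm went from 196.5 to 147 CPM per kilobase. Utp20 was the lowest member in both groups (12.8 and 12.3). Polr1a (24.2 and 19.0) and Polr1b (21.9 and 20.4) also stood near the bottom.

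Hosting of small nucleolar RNA genes was common among the members, a property the choice of genes did not use. In GENCODE M21, 9 of 31 members held snoRNA genes on the same strand within their span, 25 in all, and these were Ncl, Gnl3, Nop56, Nop58, Dkc1, Wdr43, Ppan, Odc1 and Eif4a1. Of the 12115 genes tested with 1 match in that annotation, 232 (1.91%) were hosts. None of the 9 hosts passed the test, and the 4 genes that fell were all among the other 22. Of the 232 hosts 19 passed (8.19%), against 17.4% of the genes that host none, so none of 9 is near what hosts in general gave. The median log2 fold change was -0.06 for the 9 hosts and -0.10 for the members that host none.

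Further genes of the pathway were taken from lists by role. Of 118 such genes 117 were in the files and 116 were tested; 1 rose and 3 fell (3.45%, against the background of 17.2%), and 110 of 116 were inside a 1.25-fold change (94.8%, against 60.8% of all genes tested and 78.4% of those in the members' range of level). DESeq2 called 7 of them, where it called 21.7% of all genes. Their median log2 fold change was -0.03 with TMM scaling and 0 with upper quartile scaling. Cirh1a, a factor of the small subunit processome, went from 78.2 ± 1.71 to 58.0 ± 0.428 CPM (SD, n = 3), with a log2 fold change of -0.43 (edgeR adjusted p = 0.00767). Nob1, the endonuclease that makes the end of the 18S RNA, fell from 81.4 ± 6.11 to 60.9 ± 3.84 CPM (SD, n = 3; log2 -0.42), and Nle1, a large subunit factor, from 49.5 ± 5.26 to 37.8 ± 2.32 CPM (SD, n = 3; log2 -0.39). The helicase gene Ddx24 was the gene that rose, from 108 ± 5.94 to 137 ± 11.9 CPM (SD, n = 3; log2 0.34, edgeR adjusted p = 0.0466).

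Beside Polr1a and Polr1b, 12 tested genes of RNA polymerase I and its initiation factors gave no call with edgeR, where 17.2% of all genes passed. DESeq2 called 1, Polr1c, as lower (log2 -0.28, adjusted p = 0.0495), where it called 21.7% of all genes. In the edgeR fit 10 of the 12 had fitted changes below 0, with a median of -0.07, and 3 were lower at an unadjusted p under 0.05 (15.9% of all genes were), namely Polr1c (log2 -0.29), Rrn3 (-0.23) and Taf1d (-0.32). The 10 further snoRNP and assembly genes gave none that passed, against 17.2% of all genes, with a median of -0.06. Of 47 small subunit and 47 large subunit factors, 2 and 1 fell and none and 1 rose with edgeR. DESeq2 also called the small subunit factor genes Pwp2 as lower (log2 -0.26, adjusted p = 0.0423) and Nol7 as higher (log2 0.30, adjusted p = 0.0189).

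Cytosolic ribosomal protein genes, whose products the pathway assembles, were tested in 71 cases and none passed with edgeR, where 17.2% of all genes did. At an unadjusted p under 0.05 in that test, 4 were lower and none higher, and DESeq2 called 3 lower. The median was -0.11, and 68 of 71 had fitted changes below 0, or 57 of 71 with upper quartile scaling. Their summed level was 86040, 83340 and 77290 CPM in untreated replicates 1 to 3 and 85340, 71110 and 70940 CPM in tamoxifen replicates 1 to 3. Tamoxifen replicate 1 was thus inside the untreated range and replicates 2 and 3 below it. Without tamoxifen replicate 1, 18 of 71 fell and none rose, where 12.3% of all genes were called as lower. Rplp0, the stalk protein gene, went from 3799, 3701 and 3385 CPM untreated to 3242, 2982 and 2883 CPM with tamoxifen (log2 -0.26, edgeR adjusted p = 0.0672), and without that library its log2 fold change was -0.30 (adjusted p = 0.0153). Ribosomal protein genes have many processed copies, so their counts are uncertain.

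**Figure D5:**
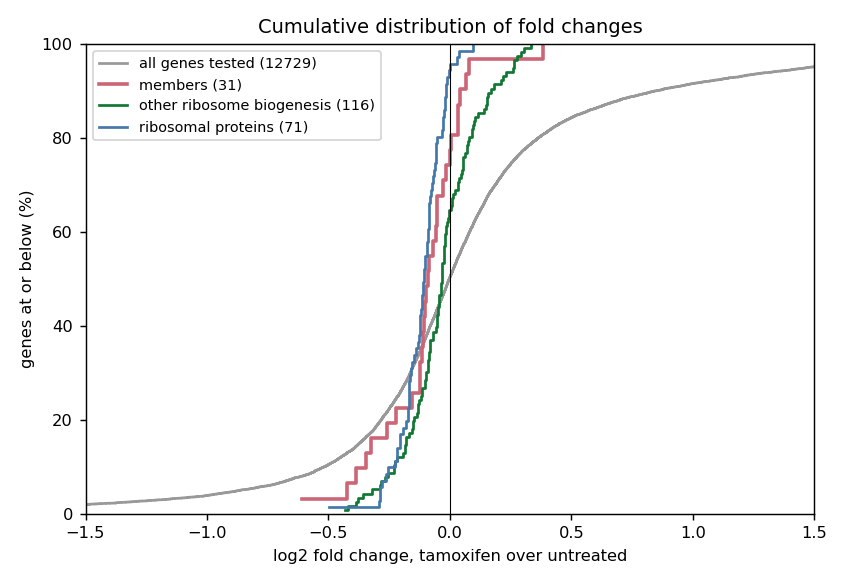
Cumulative share of genes (vertical axis, %) at or below a log2 fold change, tamoxifen over untreated (horizontal axis, -1.5 to 1.5), for all 12729 genes tested, the 31 members, 116 further ribosome biogenesis genes and 71 ribosomal protein genes. The 3 gene sets rise steeply around their medians of -0.09, -0.03 and -0.11. The middle 50% of all genes lie between -0.22 and 0.26, and of the genes in the members' range of mean level, not drawn, between -0.18 and 0.12; for the members the limits are -0.14 and -0.01.

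Among the pathways around Srm and Cad, 1 of 7 polyamine genes passed (14.3%) and 2 of 15 nucleotide synthesis genes (13.3%). Around Eif4a1, 1 of 11 further EIF4 family genes and regulators passed (9.09%). Over all genes tested 17.2% passed. Of the 7 tested polyamine genes other than Odc1 and Srm, Sms, which encodes spermine synthase and uses the product of Srm, rose from 98.5 ± 2.996 to 149.8 ± 10.1 CPM (SD, n = 3), or by 0.61 on the log2 scale (edgeR adjusted p = 0.00277), and none fell. Amd1, also on the polyamine list, had 0 counts in every library and was not tested, and Oaz1 held only 65 to 122 counts. For both, the counts cannot tell low expression from reads that were not assigned to the gene. Both nucleotide synthesis genes that passed fell. Impdh1, an enzyme gene of guanine nucleotide synthesis, stood at 60.0, 58.6 and 50.9 CPM untreated and 33.6, 14.7 and 18.2 CPM with tamoxifen (log2 -1.35, SE 0.27, edgeR adjusted p = 0.0127), and Ctps, the CTP synthase gene downstream of Cad, differed by -0.34 (edgeR adjusted p = 0.0469). Of the 11 EIF4 family genes and regulators, Eif4g3 fell (log2 -0.39, edgeR adjusted p = 0.0141) and none rose. None of 4 mitochondrial transcription genes passed, too few genes to set against the 17.2% of all genes.

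Myc itself did not pass. It stood at 237, 198.5 and 229.6 CPM untreated and 240.4, 283 and 222 CPM with tamoxifen (log2 0.16, edgeR adjusted p = 0.372), while Mycn, at 2.24 to 2.97 CPM untreated, rose to 12.4, 4.88 and 7.39 CPM (log2 1.597, edgeR adjusted p = 0.0197). The MYC antagonist gene Mxd4 fell (log2 -0.69, edgeR adjusted p = 0.0256), and Max (-0.06), Mnt (-0.12), Mxd1 (0.36), Mxd3 (0.47), Mxi1 (-0.25), Mlx (-0.37) and Mga (0.08) did not pass. In bulk RNA, fewer cells of a type and less RNA per cell cannot be told apart, which holds for every level given here.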

How the data were processed

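RNA was measured in 6 mouse libraries, grouped by the sample titles. The authors deposited 1 table of raw, unscaled counts for each library. The submitters' processing notes name the build mm9 and the tools TopHat2 2.1.0, featureCounts, DESeq2 and FastQC, but neither their role nor their order. Annotation, strand setting and treatment of multiply mapped reads were not stated in the labels or headers; without strand, overlapping genes share counts, and genes with copies are counted unevenly.

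Library totals were adjusted by TMM factors (edgeR 4.0.16 under R 4.3.3) and filtered with filterByExpr (minimum count 10). The test was edgeR's quasi-likelihood F test (two-sided) without covariates besides group, Benjamini-Hochberg adjusted over all genes tested, threshold 0.05. Each SE was derived from the fold change and its F statistic, and 95% intervals use the test's degrees of freedom. CPM values are TMM-scaled.

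The members and lists were chosen with earlier results of these data known, so no test was made over a list. Every member is described; values in every library are given for members that passed in the main or any alternative fit, had an unadjusted p under 0.05, or had the highest mean of their role. Of each other list, up to 6 passing genes and all of the MYC and MAX network are named; further genes were named after their values were seen. Alternatives were RLE, upper quartile and no factors, no filter, CPM above 1 in 3 libraries, DESeq2 1.42.0, limma voom (limma 3.58.1), the replicate number as a block and leaving out each library. The test was tried on simulated counts. Promoters (RefSeq) and gene models (GENCODE M21) are of GRCm38, not the build counted, and were matched by symbol.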

Additional observations from a re-analysis of the deposited data

How the results depend on the processing

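The members' median log2 fold change stayed below 0 under all 14 alternatives (-0.12 to -0.06), and no member that passed in any fit changed direction. With upper quartile scaling 21 of 31 members were below 0, against 24 in the main fit. With each library left out in turn, 1 to 6 members passed, as did 1029 to 3249 of all genes, 1 to 7 of the further ribosome biogenesis genes and 0 to 18 of the ribosomal protein genes. For all genes the lowest numbers were without untreated replicate 1 (1029) and 2 (1242). Cad alone of the members passed without untreated replicate 1, untreated replicate 2, tamoxifen replicate 2 or tamoxifen replicate 3. DESeq2 called 7 of the further ribosome biogenesis genes, against 4, and 3 ribosomal protein genes, against 0. Whether the libraries are paired was checked on the correlation of same-numbered libraries' deviations from their group means. It was 0.12, -0.12 and 0.11 for numbers 1 to 3, and not every library correlated best with its own number. Deviations from a mean of 3 libraries are not independent, so these values cannot decide whether the numbers pair the libraries. With the replicate number as a block, 1792 of all genes, 3 members (Cad, Srm and Ppan), 2 further ribosome biogenesis genes and 0 ribosomal protein genes passed. The cause of these differences was not tested.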
